A study of Rattus norvegicus with 16 samples.

Results

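Cells remove superoxide and peroxide with a small set of enzymes, and 8 genes of this antioxidant defence were followed in the hippocampus of young and old rats that were exercise-trained or sedentary. The genes were given by Ensembl ID: Sod1 (ENSRNOG00000002115), Sod2 (ENSRNOG00000019048), Cat (ENSRNOG00000008364), Hmox1 (ENSRNOG00000014117), Nqo1 (ENSRNOG00000012772), Gclc (ENSRNOG00000006302), Gclm (ENSRNOG00000013409) and Nfe2l2 (ENSRNOG00000001548). They were chosen for their function, and the symbols are those listed with the IDs when they were chosen, because the count table holds IDs only. All 8 were found among the 32754 IDs of the table, and all 8 were among the 15035 genes that passed a filter on low counts.

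The samples were hippocampi of wild-type male Fischer-344 rats, an inbred strain much used in aging research, and each library came from 1 rat. The 4 groups were old trained, old sedentary, young trained and young sedentary, with 4 libraries each. Old rats were 20 months old and young rats 6 months old per the labels, and the trained or sedentary period lasted 10 weeks. The labels also say that rats went through behavioral tests before tissue was taken, so all groups share that handling, and the training regimen itself is not described in the sources used here.

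Superoxide dismutases turn superoxide into hydrogen peroxide, SOD1 mainly in the cytosol and SOD2 in mitochondria, and catalase breaks hydrogen peroxide down in peroxisomes. NRF2, the product of Nfe2l2, is a transcription factor that KEAP1 marks for degradation under basal conditions and that binds antioxidant response elements when oxidants or electrophiles block KEAP1. Its well-known targets include Nqo1, Hmox1, Gclc and Gclm. Glutathione, whose synthesis depends on the enzyme of Gclc and Gclm, protects neurons and astrocytes against peroxide.

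The genes called lower in old trained than in old sedentary rats, as given below, were Nfe2l2, Gclc, Gclm, Nqo1 and Cat. The 250 bases before their annotated starts are shown, from RefSeq on assembly GRCr8, whereas the counts were made on Rnor_6.0. The sequences are printed 5′ to 3′ on the strand of the gene, and capitals mark a match to TGACNNNGC, the core of the antioxidant response element, on either strand.
Nfe2l2 (chr3:81029000-81029249, minus strand): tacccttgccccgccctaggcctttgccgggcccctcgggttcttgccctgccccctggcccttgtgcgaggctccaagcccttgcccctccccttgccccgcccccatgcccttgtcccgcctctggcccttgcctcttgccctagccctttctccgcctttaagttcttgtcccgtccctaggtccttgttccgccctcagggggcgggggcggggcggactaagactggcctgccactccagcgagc
Gclc (chr8:87510226-87510475, plus strand): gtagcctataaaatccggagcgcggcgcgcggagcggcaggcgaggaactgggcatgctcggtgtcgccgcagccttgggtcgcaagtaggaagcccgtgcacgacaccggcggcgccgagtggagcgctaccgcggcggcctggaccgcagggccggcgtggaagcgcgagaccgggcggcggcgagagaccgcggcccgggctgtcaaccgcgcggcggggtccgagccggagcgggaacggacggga
Gclm (chr2:213031885-213032134, plus strand): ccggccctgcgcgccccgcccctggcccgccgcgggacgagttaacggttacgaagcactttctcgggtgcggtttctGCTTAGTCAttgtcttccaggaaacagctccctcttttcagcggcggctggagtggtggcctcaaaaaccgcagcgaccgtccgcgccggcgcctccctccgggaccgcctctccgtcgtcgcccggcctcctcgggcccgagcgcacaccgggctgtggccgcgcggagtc
Nqo1 (chr19:52220268-52220517, minus strand): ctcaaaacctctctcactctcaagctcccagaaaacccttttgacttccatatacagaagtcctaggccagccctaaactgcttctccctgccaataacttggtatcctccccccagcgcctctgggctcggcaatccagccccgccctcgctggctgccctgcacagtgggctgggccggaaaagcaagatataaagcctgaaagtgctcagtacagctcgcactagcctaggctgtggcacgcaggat
Cat (chr3:110329527-110329776, minus strand): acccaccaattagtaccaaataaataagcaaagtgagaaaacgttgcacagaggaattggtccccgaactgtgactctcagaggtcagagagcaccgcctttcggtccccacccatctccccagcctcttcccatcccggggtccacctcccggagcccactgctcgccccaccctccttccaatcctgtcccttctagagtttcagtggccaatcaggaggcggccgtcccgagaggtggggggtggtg

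Windows of 300 bases, 250 before and 50 after the start, were matched by symbol for 7 of the 8 genes, Hmox1 being the other. Of these 7 windows, 3 held the 9 letters of TGACNNNGC: Gclm, with the first base of the match 172 bases before the start and the letters on the opposite strand (the capitals above), Sod2, at 35 bases before the start on the opposite strand, and Nfe2l2, at position 39 after the start on the gene's own strand, beyond the bases printed. Across 27457 rat promoter windows of the same length, 12.2% held a match on either strand. The windows of Gclc, Nqo1, Cat and Sod1 did not hold these letters. Sequence beyond the windows was not searched, so elements farther from the start would be missed. A match is a description of the sequence, and these data carry no measurement of binding.

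Depth ranged from 8630396 to 14576687 counts per library. The first principal component of log2 CPM (CPM, a gene's count relative to its library's total count after TMM scaling, on edgeR's usual CPM scale) held 46.9% of the variance and placed the 8 trained libraries between -39.8 and -18.9 and the 8 sedentary ones between 0.69 and 55.9. Old sedentary replicates 1, 2 and 4 stood at its far end, between 49.7 and 55.9, with replicate 3 at 12.7. Because the count table gives IDs without symbols, markers of hippocampal cell types, blood or choroid plexus were not checked, and their part in the results was not tested. In whole tissue, fewer cells of a type and less RNA per cell cannot be told apart.

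Counts of the 8 genes set how finely each could be measured. Sod1 had 1594 to 3057 counts per library and Sod2 had 1193 to 1851, Cat 371 to 869 and Gclc 417 to 970. Nfe2l2 had 218 to 467, Gclm 116 to 327 and Nqo1 97 to 237. Hmox1, the haem-degrading enzyme haem oxygenase 1, was the most sparsely counted, with 54 to 125. For a library at its group's mean count, counting error alone amounts to a coefficient of variation between 10.1% and 12.2% for Hmox1. For Sod1 it amounts to 2.05% to 2.17%. Levels of different genes are not compared here, because counts also rise with transcript length.

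**Figure D1:**
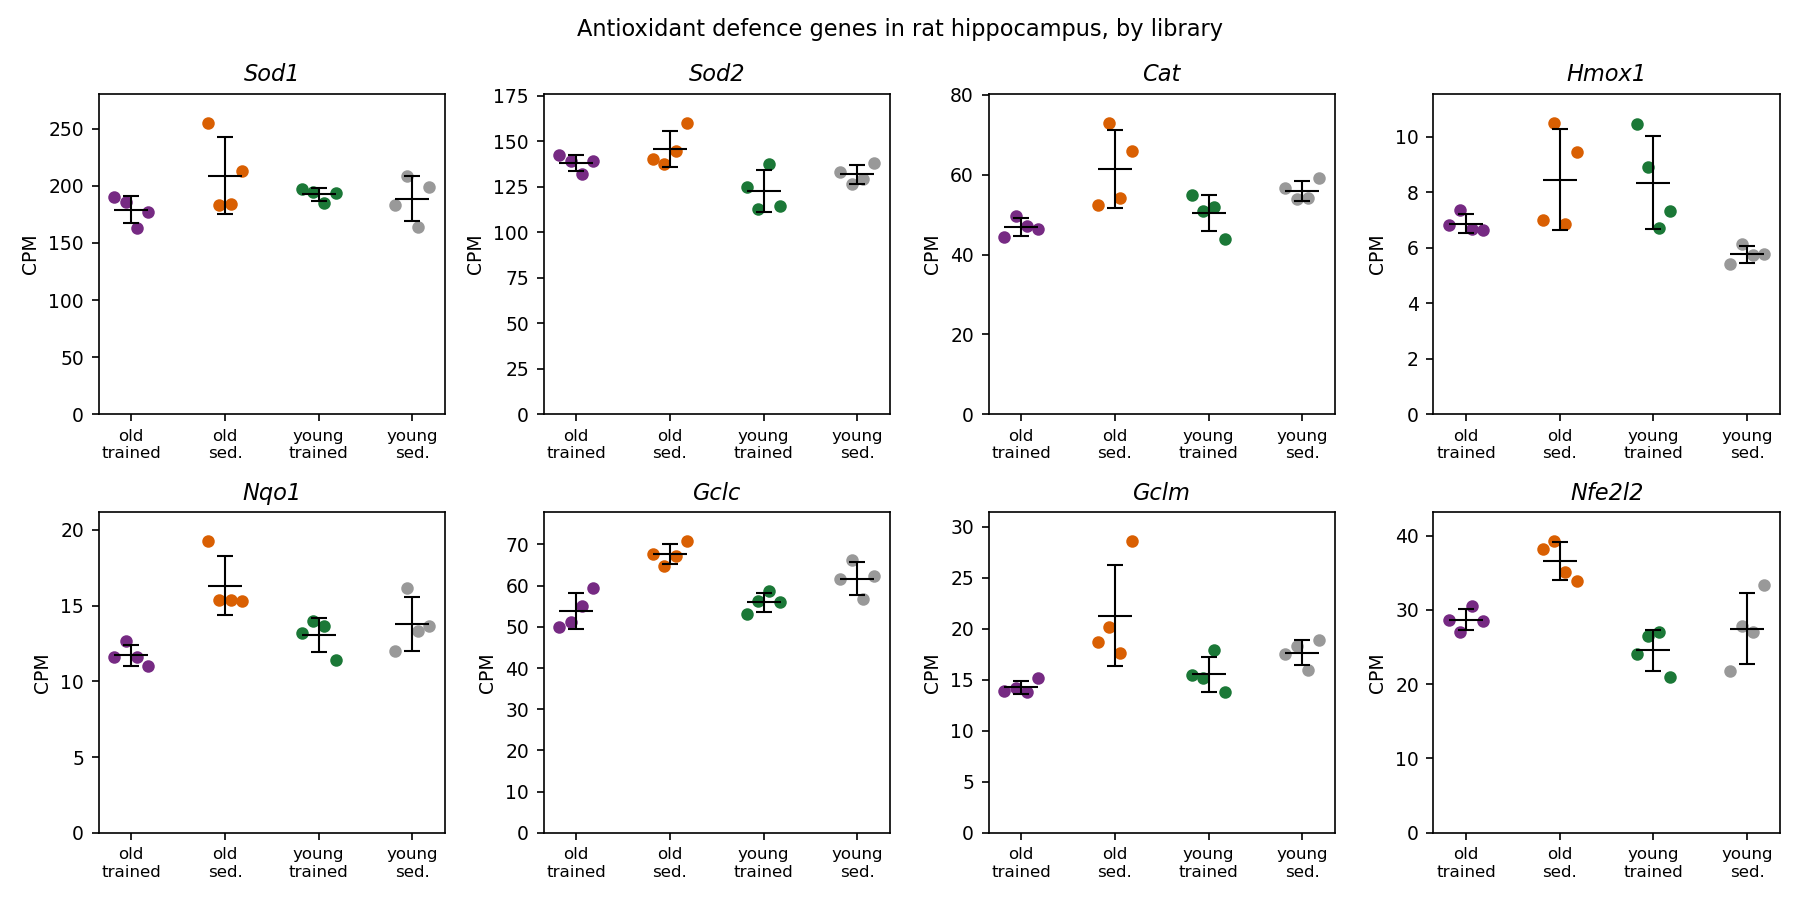
CPM (y axis, from 0) of the 8 genes in each of the 16 libraries, with points for rats and black bars for the mean and SD of the 4 libraries of a group. Old trained rats lie wholly below old sedentary rats for Cat, Nqo1, Gclc, Gclm and Nfe2l2, and young trained rats lie wholly above young sedentary rats for Hmox1.

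The comparison of trained with sedentary rats of old age asked whether exercise altered these genes late in life. Nfe2l2, both subunit genes of glutathione synthesis, Nqo1 and Cat were each lower in old trained rats, with folds from 0.671 for Gclm to 0.797 for Gclc, and the libraries of old trained and old sedentary rats did not overlap for any of the 5. Sod1, Sod2 and Hmox1 did not pass the test. In all, 5 of 8 genes were called lower at adjusted p below 0.05, where 12.6% of all genes tested were called lower, and 0 of 8 were called higher, where 11.5% of all genes were. The median log2 fold change was -0.34 over the 8 genes and -0.01 over all genes tested. Ranges without overlap and with lower values in trained rats occurred in 11.3% of all genes tested.

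Nfe2l2 stood at 28.6, 27.1, 30.5 and 28.5 CPM in old trained rats, against 38.2, 39.2, 35.1 and 33.9 CPM in old sedentary rats. Every old trained rat lay below every old sedentary rat. The log2 fold change was -0.35 (SE 0.11, edgeR adjusted p = 0.0269). The adjusted p was above 0.05 on leaving out any 1 of 5 libraries, which were old trained replicates 1, 2 and 4 and old sedentary replicates 1 and 2, with a highest value of 0.0768 and log2 fold changes from -0.39 to -0.32 over all 16 such fits.

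Gclc, which encodes the catalytic subunit of glutamate-cysteine ligase, the rate-limiting enzyme of glutathione synthesis, had 49.9, 51.1, 54.9 and 59.5 CPM in old trained rats, against 67.7, 64.9, 67.1 and 70.8 CPM in old sedentary rats. The groups were separated by a gap, and the old sedentary rats were close together. Its log2 fold change was -0.33 (SE 0.07, edgeR adjusted p = 0.00344). Gclm, which encodes the modifier subunit that raises the activity of the enzyme, had 13.9, 14.2, 13.8 and 15.2 CPM in old trained rats, against 18.7, 20.2, 17.7 and 28.6 CPM in old sedentary rats. Old sedentary replicate 4 was well above the other old sedentary rats, which themselves all lay above the old trained ones. The log2 fold change of Gclm was -0.58 (SE 0.13, edgeR adjusted p = 0.00528), and without old sedentary replicate 4 it was -0.40 and still called.

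Nqo1, a quinone reductase and a classic NRF2 target, had 11.6, 12.7, 11.6 and 11.0 CPM in old trained rats, against 19.3, 15.4, 15.4 and 15.3 CPM in old sedentary rats. The groups did not overlap, with old sedentary replicate 1 the highest of all 16 libraries. Its log2 fold change was -0.48 (SE 0.11, edgeR adjusted p = 0.00598). Cat, the catalase gene, had 44.4, 49.5, 47.3 and 46.5 CPM in old trained rats, against 52.3, 73.0, 54.3 and 65.9 CPM in old sedentary rats. Old sedentary rats were spread over a wide range, with replicates 2 and 4 high, and the lowest of them was still above the highest old trained rat. The log2 fold change of Cat was -0.39 (SE 0.10, edgeR adjusted p = 0.00885).

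The 3 remaining genes overlapped between the old groups. Sod1 averaged 179 ± 12.1 CPM in old trained rats and 209 ± 33.8 CPM in old sedentary rats (SD, n = 4 each), which gave a log2 fold change of -0.22 with an SE of 0.10 (edgeR adjusted p = 0.119). Sod2 averaged 138 ± 4.54 CPM in old trained rats and 146 ± 10.1 CPM in old sedentary rats (SD, n = 4 each), a log2 fold change of -0.08 (95% interval -0.23 to 0.07). Hmox1 had 6.82, 7.35, 6.69 and 6.63 CPM in old trained rats, against 6.99, 10.5, 6.87 and 9.44 CPM in old sedentary rats. Old sedentary replicates 2 and 4 were high, and replicates 1 and 3 lay within the old trained range, and the log2 fold change came to -0.30 with an SE of 0.16 (edgeR adjusted p = 0.185).

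The old sedentary libraries at the far end of the first principal component, replicates 1, 2 and 4, were not each high for every gene. Cat in old sedentary replicate 1, at 52.3 CPM, lay below replicate 3, at 54.3 CPM. Sod1 in old sedentary replicate 2, at 183 CPM, lay just below replicate 3, at 184 CPM. For all 8 genes the highest of the 16 libraries was an old sedentary one, and it was replicate 1, 2 or 4 in each case. Among all genes tested the highest library was an old sedentary one for 39.1%. The share for replicates 1, 2 and 4 alone was not computed, so their holding the highest values is only described. Old sedentary replicate 3 lies nearer the other groups on that component. For the 5 called genes it was above all 4 old trained libraries, which is part of the separation already given. It was also above them for Sod2, at 145 against at most 143 CPM in old trained rats. It was not above them for Sod1, at 184 against at most 191 CPM in old trained rats, or for Hmox1, at 6.87 against at most 7.35 CPM. The part of replicates 1, 2 and 4 in the results was not tested beyond leaving out 1 library at a time.

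Adding 1 surrogate variable, which is estimated from the counts to hold variation beyond the groups, ended all 5 calls in old rats. That variable was highest in old sedentary replicates 1, 2 and 4, between 0.431 and 0.514. It lay between -0.201 and -0.109 in the 8 trained libraries and between -0.140 and 0.194 in the other sedentary libraries. Young sedentary replicates 1 and 3, at -0.140 and -0.134, lay within the trained range. In old rats the variable was lower in every trained library than in every sedentary one. The log2 fold changes with it were -0.14 for Nfe2l2, -0.24 for Gclc, -0.20 for Gclm, -0.23 for Nqo1 and -0.22 for Cat (adjusted p = 1.00 for each). What the variable stands for, and its part in the result, was not tested.

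**Figure D2:**
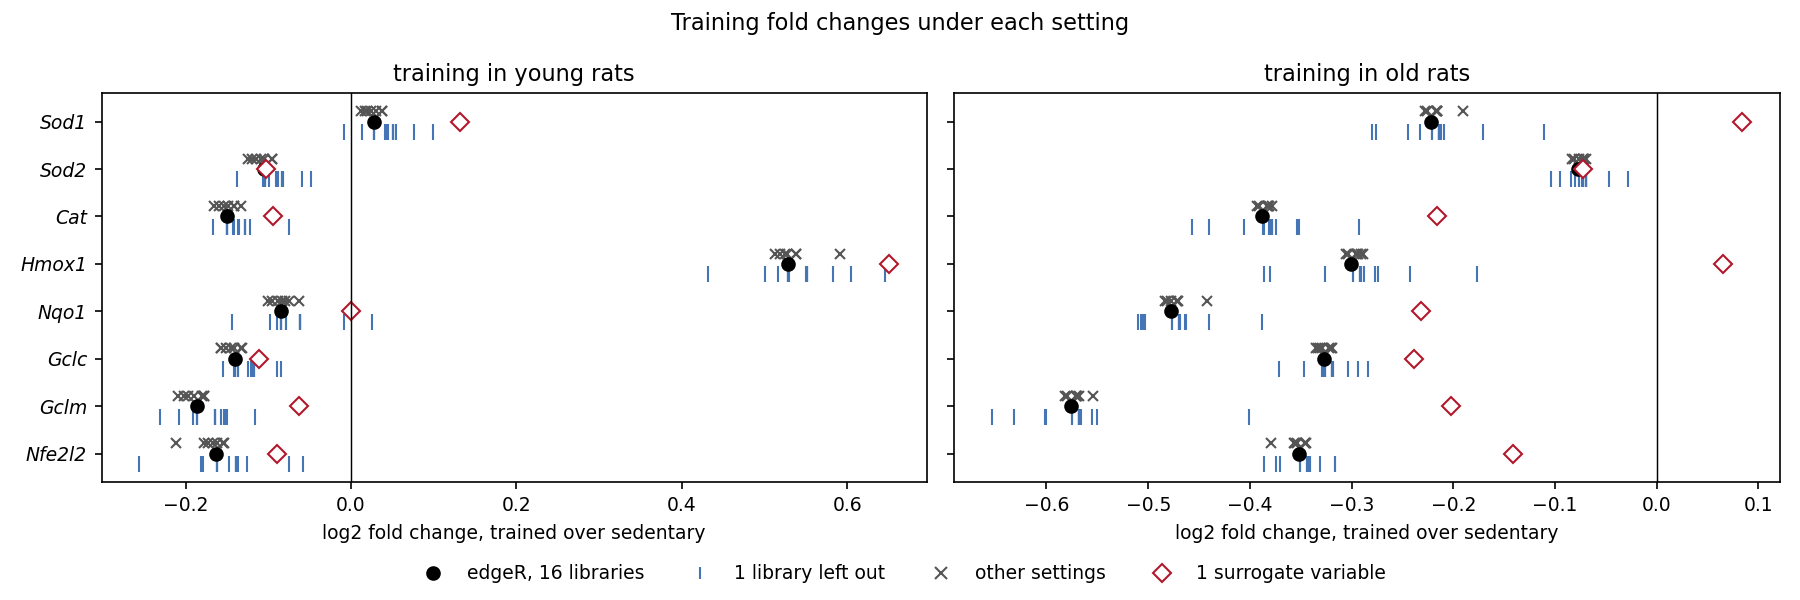
Log2 fold changes of the 8 genes (x axis, trained over sedentary) in young rats (left) and old rats (right), with black dots for edgeR on 16 libraries, blue ticks for fits without 1 library, crosses for other settings and open diamonds for the fit with 1 surrogate variable. In old rats the diamonds of Nfe2l2, Gclc, Gclm, Nqo1 and Cat lie between -0.24 and -0.14, nearer 0 than the dots, and in young rats Hmox1 stays at or above 0.43 throughout.

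In young rats the question was the same, and 1 of 8 genes was called. Hmox1 was higher in young trained rats, by 1.44-fold. The call shares were 6.78% higher and 10.3% lower over all genes tested, and the counts among the 8 genes, 1 higher and 0 lower, are near those shares. The median log2 fold change was -0.12 over the 8 genes and -0.02 over all genes tested.

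Hmox1 had 10.4, 8.89, 6.70 and 7.31 CPM in young trained rats, against 5.40, 6.15, 5.74 and 5.76 CPM in young sedentary rats. The young sedentary rats were close together and all lay below the lowest young trained rat, and young trained replicates 1 and 2 were the highest. Ranges without overlap and with higher values in trained rats occurred in 12.7% of all genes tested. The log2 fold change was 0.53 (SE 0.16, edgeR adjusted p = 0.033). Leaving out 1 library gave log2 fold changes from 0.43 to 0.65, and 5 of the 16 fits did not pass, those without young trained replicates 1 or 2 or young sedentary replicates 1, 3 or 4, with a highest adjusted p of 0.0822. With no filter on low counts the adjusted p was 0.0501. With 1 surrogate variable the log2 fold change was 0.65 and the call held.

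The other 7 genes did not pass in young rats. Gclc averaged 56.0 ± 2.33 CPM in young trained rats and 61.7 ± 3.91 CPM in young sedentary rats (SD, n = 4 each), with a log2 fold change of -0.14 (95% interval -0.29 to 0.00). Gclm averaged 15.6 ± 1.71 CPM in young trained rats and 17.7 ± 1.27 CPM in young sedentary rats (SD, n = 4 each), with a log2 fold change of -0.19 (95% interval -0.46 to 0.09). Nfe2l2 had 24.0, 26.4, 27.0 and 20.9 CPM in young trained rats, against 21.8, 27.9, 27.0 and 33.3 CPM in young sedentary rats, and these ranges overlapped widely. The intervals of log2 fold change were -0.35 to 0.05 for Cat, -0.32 to 0.15 for Nqo1, -0.40 to 0.07 for Nfe2l2, -0.25 to 0.04 for Sod2 and -0.18 to 0.24 for Sod1. The old-rat values of -0.33 for Gclc, -0.58 for Gclm, -0.39 for Cat and -0.48 for Nqo1 lie outside the young intervals. That of Nfe2l2, at -0.35, lies within. Such a comparison leaves out the error of the old-rat values, so it is no test of a difference by age. That difference was tested separately, as given below, and edgeR called none of these genes.

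**Figure D3:**
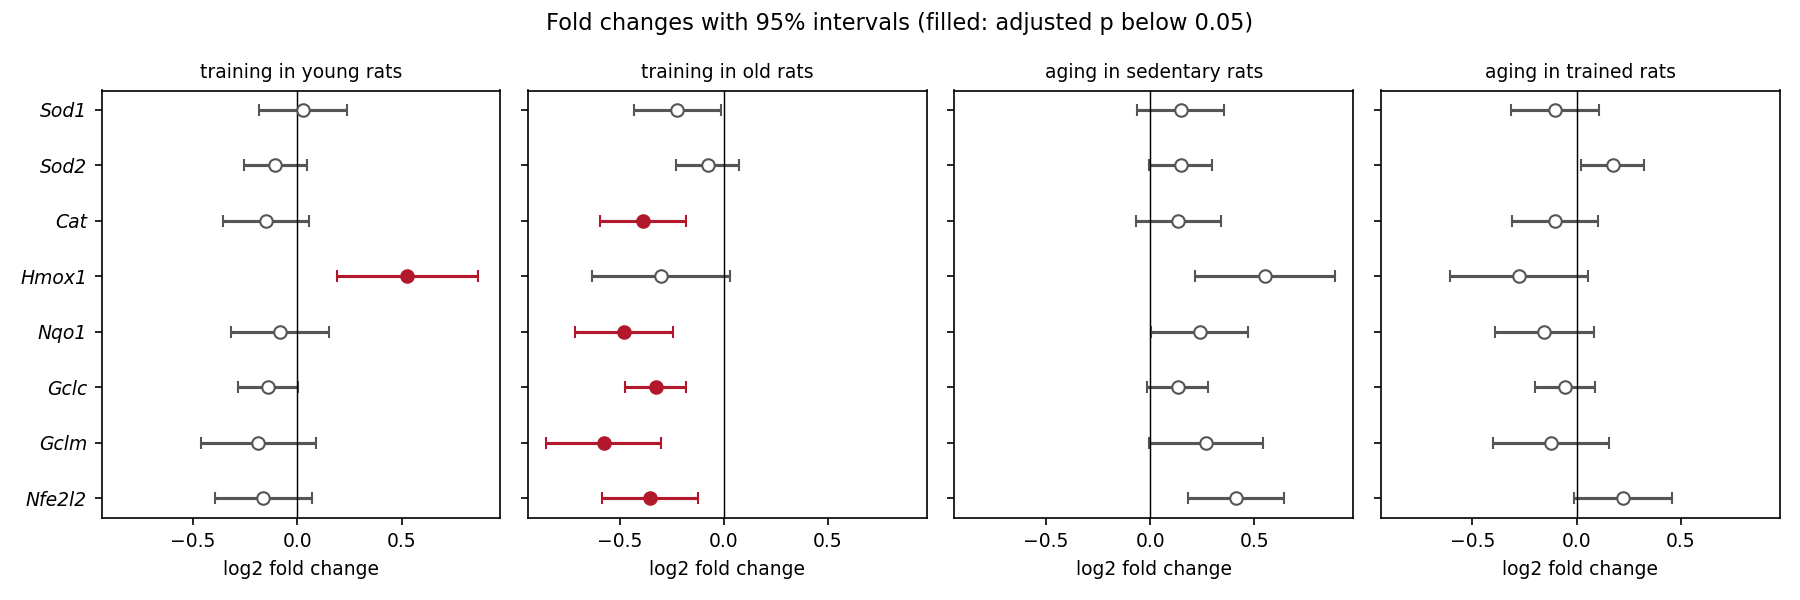
Log2 fold changes (x axis) of the 8 genes with 95% intervals in 4 comparisons, trained over sedentary in the pair of panels on the left and old over young in the pair on the right, with filled red points for adjusted p below 0.05. Filled points appear for Hmox1 in young rats, at 0.53, and for Cat, Nqo1, Gclc, Gclm and Nfe2l2 in old rats, from -0.58 to -0.33.

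Whether the training difference itself depended on age was tested by the interaction of age and training, the log2 fold change in old rats minus that in young rats. edgeR called 0 of 8 genes and 0% of all genes tested, and 2 of the 8 had an unadjusted p below 0.05, where 13.5% of all genes tested did. DESeq2 and limma voom also called 0 of the 8. The largest value was that of Hmox1, at -0.83 (SE 0.22, unadjusted p = 0.00181, adjusted p = 0.254), followed in size by Nqo1 at -0.39 (SE 0.16, unadjusted p = 0.0231, adjusted p = 0.32) and Gclm at -0.39 (SE 0.19, adjusted p = 0.372). Without old sedentary replicate 3 the Hmox1 value was -0.91 with an adjusted p of 0.0299, the only one of 16 fits without a library to pass for any of the 8 genes. The calls in old rats and their absence in young rats for Nfe2l2, Gclc, Gclm, Nqo1 and Cat are thus not shown to differ by age.

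Averaged over age, trained rats were lower than sedentary rats for the 5 genes called in old rats, with log2 fold changes between -0.23 for Gclc (SE 0.05, edgeR adjusted p = 0.00152) and -0.38 for Gclm (SE 0.09, edgeR adjusted p = 0.00449). That is 5 of 8 genes, against 18% of all genes tested called lower in this comparison. Nqo1 stood at -0.28 (SE 0.08), Cat at -0.27 (SE 0.07) and Nfe2l2 at -0.26 (SE 0.08). These averages include the same old libraries and are not separate evidence. All 5 calls held in each fit without 1 library, and 0 of the 8 were called with 1 surrogate variable.

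Age was compared within sedentary rats first. edgeR called 0 of 8 genes, where 1.51% of all genes tested were called, and 3 of the 8 had an unadjusted p below 0.05, where 19.9% of all genes tested did. DESeq2 called 2 of the 8, Nfe2l2 and Hmox1, where it called 6.05% of all genes tested, and limma voom called 0. Nfe2l2 had 38.2, 39.2, 35.1 and 33.9 CPM in old sedentary rats, against 21.8, 27.9, 27.0 and 33.3 CPM in young sedentary rats. Every old sedentary rat was above every young sedentary rat, though the nearest pair stood at 33.9 against 33.3 CPM, and the log2 fold change was 0.41 (SE 0.11, edgeR adjusted p = 0.0616, DESeq2 adjusted p = 0.0176). For Hmox1, with the values given above, all old sedentary rats also lay above all young sedentary rats, and the log2 fold change was 0.55 (SE 0.16, edgeR adjusted p = 0.0759, DESeq2 adjusted p = 0.0443). Thus 2 of 8 genes had ranges without overlap and higher in old rats, against 4.3% of all genes tested. Without old sedentary replicate 3 both passed in edgeR, with adjusted p of 0.0248 for Nfe2l2 and 0.0165 for Hmox1, and Nfe2l2 also passed without young sedentary replicate 4, with 0.0387. The other 6 genes had log2 fold changes from 0.13 for Gclc to 0.27 for Gclm.

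This age comparison and that of training in old rats use the same old sedentary libraries, so opposite signs in them are not independent. For Nfe2l2 the log2 fold change was 0.41 with age among sedentary animals and -0.35 with training among old ones. For Gclm, in the same order of comparisons, they were 0.27 and -0.58, for Nqo1 0.24 and -0.48, for Gclc 0.13 and -0.33, and for Cat 0.14 and -0.39.

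Within trained rats, age was associated with 0 calls among the 8 genes, where 4.98% of all genes tested were called. In edgeR 1 of the 8 had an unadjusted p below 0.05, where 22.7% of all genes tested did, and DESeq2 and limma voom called 0. The gene with that p was Sod2, the mitochondrial dismutase, with 143, 139, 132 and 139 CPM in old trained rats, against 125, 113, 138 and 115 CPM in young trained rats. Young trained replicate 3 lay within the old range, and the log2 fold change was 0.17 (SE 0.07, edgeR adjusted p = 0.159). Nfe2l2 had 28.6, 27.1, 30.5 and 28.5 CPM in old trained rats, against 24.0, 26.4, 27.0 and 20.9 CPM in young trained rats. The groups were just separated, at 27.1 against 27.0 CPM, as 1 of 8 genes, where 8.47% of all genes tested were separated with higher values in old rats. Its log2 fold change was 0.22 (SE 0.11, edgeR adjusted p = 0.244).

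Averaged over training, Nfe2l2 was the 1 gene of 8 called for age, higher in old rats by 0.32 on the log2 scale (SE 0.08, edgeR adjusted p = 0.017), where 5.51% of all genes tested were called higher. The call held in all 16 fits without 1 library, with adjusted p from 0.00664 to 0.0368, and was lost with 1 surrogate variable, with a log2 fold change of 0.26 and an adjusted p of 0.116. Sod2 lay close to the threshold, at 0.16 on the log2 scale (SE 0.05, edgeR adjusted p = 0.0516), and it passed with DESeq2, with an adjusted p of 0.0277, and with limma voom, with 0.0453. The remaining genes ranged from 0.02 for Cat to 0.14 for Hmox1.

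**Figure D4:**
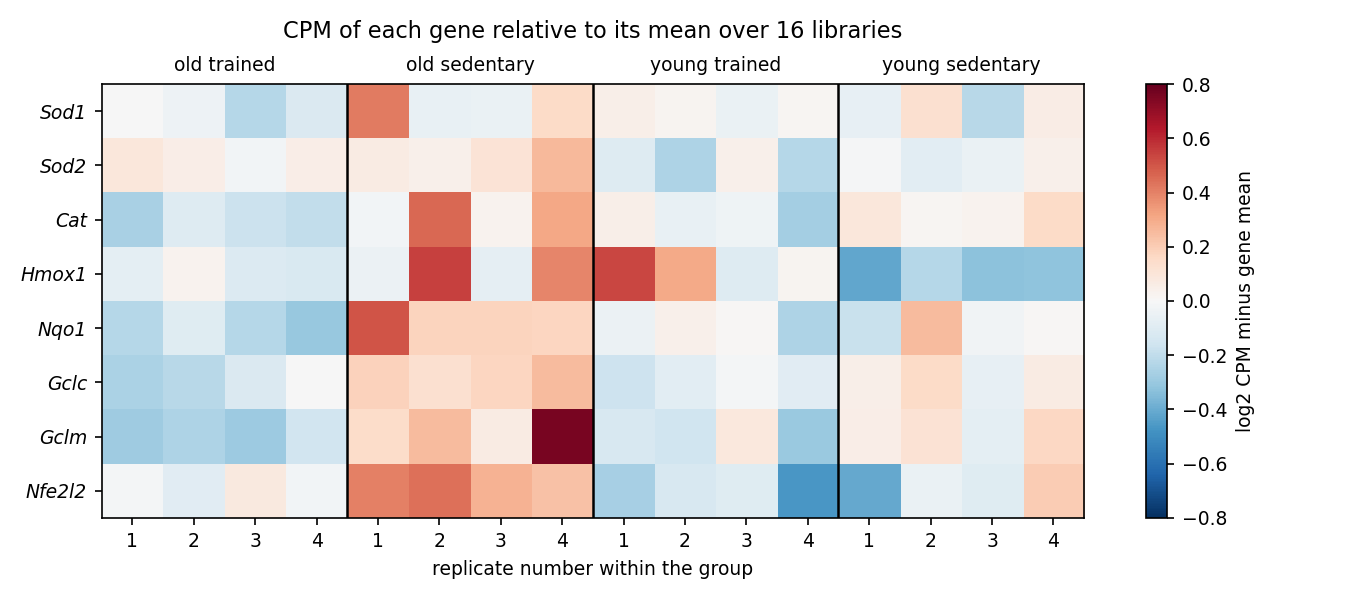
Log2 CPM of each of the 8 genes (rows) in each of the 16 libraries (columns, by group and replicate number) minus the mean of the gene, from blue (lower) to red (higher). The old sedentary columns hold the highest library of all 8 genes, and Hmox1 is low in all young sedentary columns and high in young trained replicates 1 and 2.

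By level, the groups ran in the same order for Gclc and Gclm: old trained lowest, then young trained, young sedentary and old sedentary. Cat and Nqo1 had this order too. Ranges of neighbouring groups in this order overlapped for each of these 4 genes. Nfe2l2 ran from young trained at 24.6 ± 2.76 CPM through young sedentary at 27.5 ± 4.72 CPM and old trained at 28.7 ± 1.40 CPM to old sedentary at 36.6 ± 2.52 CPM (SD, n = 4 each). Its young sedentary range overlapped both the young trained and the old trained one. Hmox1 had its own order, with young sedentary lowest at 5.76 ± 0.308 CPM, then old trained at 6.87 ± 0.332 CPM, young trained at 8.34 ± 1.68 CPM and old sedentary at 8.45 ± 1.81 CPM (SD, n = 4 each). Hmox1 ranges overlapped between old sedentary and young trained rats and between old trained and young trained rats, and young sedentary rats lay below all others.

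Profiles over the 16 libraries were also compared by the root mean squared difference of log2 CPM after centring each gene on its mean. Between pairs of the 7 genes other than Hmox1 this difference ran from 0.146, for Sod2 and Gclc, to 0.251, for Sod1 and Nfe2l2. For Hmox1 with each of the others it ran from 0.271 with Cat to 0.335 with Nfe2l2, and the larger counting error of Hmox1 adds to it. Among all other genes tested, the smallest difference from a member was 0.0618 for Sod1 and 0.164 for Hmox1, at genes known here by ID only.

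Ratios of counts within a library do not depend on how libraries are scaled, and 3 were tested by 2-sided exact permutation in the 4 comparisons between groups, 12 tests in all. The ratio of Gclc to Gclm, the subunits of 1 enzyme, was 3.59, 3.59, 3.98 and 3.92 in old trained rats, against 3.62, 3.22, 3.80 and 2.48 in old sedentary rats. Old sedentary replicates 2 and 4 lay below every old trained library, replicate 4 by more, and replicates 1 and 3 lay within the old trained range. The exact permutation p was 0.171 (adjusted p = 0.655). In young rats the ratio averaged 3.63 ± 0.340 in trained and 3.50 ± 0.140 in sedentary animals (SD, n = 4 each, exact permutation p = 0.571). The ratio of Nqo1 to Hmox1 was 1.26, 1.57, 2.04 and 1.56 in young trained rats, against 2.22, 2.63, 2.32 and 2.38 in young sedentary rats. These ranges did not overlap, and the exact permutation p of 0.0286 is the smallest that 4 against 4 can give, but the adjusted p over the 12 tests was 0.171. The ratio of Sod1 to Sod2 was 1.34, 1.34, 1.24 and 1.27 in old trained rats, against 1.58, 1.72, 1.34 and 1.69 in young trained rats. Young trained replicate 3 barely exceeded the highest old trained library, both being 1.339 when rounded, and the exact permutation p was again 0.0286 with an adjusted p of 0.171. None of the 12 ratio tests passed after adjustment. With 0.0286 as the smallest possible p, a few fully separated ratios could not pass over 12 tests. The lack of calls therefore does not show that the ratios were equal.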

How the data were processed

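Poly(A) RNA of 16 hippocampi was sequenced on an Illumina HiSeq, per the labels' protocols, which name 4 rats per group but 5 libraries per condition, run 10 to a lane. The count table has 4 libraries per group. Which lane a library ran on is not stated, so effects of lane and of group cannot be told apart. The authors deposited raw counts per Ensembl gene ID, without normalization. Per the submitters' processing notes, the tools included TopHat2 2.1.1, HTSeq, Trimmomatic, SAMtools, FastQC and DESeq2, on the build Rnor_6.0. No strand setting is named there, so overlapping genes are uncertain.

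Counts were tested with edgeR 4.0.16 in R 4.3.3 (filterByExpr, TMM, robust glmQLFit over all 16 libraries, glmQLFTest, 2-sided), with Benjamini-Hochberg adjustment over 15035 genes and calls at adjusted p below 0.05. The SE of a log2 fold change is its size over the root of F, and intervals are 95%. CPM used TMM-scaled totals. Ranges without overlap are described, not tested. The reference table of assembly GRCr8 paired none of the Ensembl IDs with symbols, so the other lists of pathway genes and cell type markers, given by symbol, were not used, and all 8 members were named whatever their values. The members, lists and tests were chosen with earlier results of these data known. The fit was tested on simulated counts with 200 changed genes. No pair of libraries within a group agreed within sampling noise, and pairs across groups were not checked. The tests set differences between groups against the spread between rats. Alternatives were DESeq2 size factors, DESeq2 1.42.0, limma 3.58.1 voom, no filter, a stricter one (1 CPM or more in 8 or more libraries), 1 surrogate variable (sva 3.50.0), a replicate block, leaving out each library, and fits of only the 8 libraries compared.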

Additional observations from a re-analysis of the deposited data

Results flagged for a closer look

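Of 32 sets of 4 libraries (8 genes in 4 groups), 1 had a library far from the other 3. Nqo1 stood at 19.3 CPM in old sedentary replicate 1, against 15.3 to 15.4 CPM in the remaining libraries of that group. Chance alone marks about 1 in 20 such sets. Without that library the log2 fold change of Nqo1 for training in old rats was -0.39, and the call held.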

How the results depend on the processing

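The count of 5 genes called lower by training in old rats was 4 to 5 on leaving out 1 library and 0 with 1 surrogate variable. Averaged over age it was 5 in every fit without 1 library and 0 with 1 surrogate variable. For training in young rats the count of 1 was 0 without a filter and 0 to 1 without 1 library. For age in sedentary rats the count of 0 was 2 with DESeq2 and 0 to 2 without 1 library, for age in trained rats 0 throughout, and for the interaction 0 to 1 without 1 library. For age averaged over training the count of 1 was 2 with DESeq2, limma voom and the stricter filter, 1 to 2 without 1 library and 0 with 1 surrogate variable. The cause of these shifts was not tested.

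With 1 surrogate variable, log2 fold changes that turned their sign were 0.00023 for Nqo1 (training, young), 0.084 for Sod1 and 0.065 for Hmox1 (training, old), -0.047 for Sod1 (age, sedentary), 0.11 for Sod1 (training, averaged) and, for age averaged, -0.070 for Sod1, -0.036 for Cat, -0.031 for Nqo1 and -0.041 for Gclm. None of these was called. Without 1 library the signs that turned lay within -0.14 to 0.025 for Nqo1 and -0.0091 to 0.0995 for Sod1 (training, young), -0.021 to 0.076 for Sod2 (interaction) and, for age averaged, -0.031 to 0.051 for Cat, -0.034 to 0.051 for Sod1, -0.0027 to 0.079 for Nqo1 and -0.015 to 0.11 for Gclm. DESeq2 size factors changed no call of the 8 genes.

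Over all genes tested, calls for training in old rats numbered 3618, against 3 with 1 surrogate variable and 2345 with only the 8 libraries compared. For training in young rats they numbered 2572, against 1602 with 1 surrogate variable, 4393 with limma voom and 1289 to 2992 without 1 library. Training averaged over age gave 5100, against 227 with 1 surrogate variable. Age in sedentary rats gave 227, against 909 with DESeq2, 457 with limma voom, 8 with 1 surrogate variable, 24 with only the 8 libraries and 38 to 2007 without 1 library. Age in trained rats gave 748, against 1244, 1348 and 1202 with DESeq2, limma voom and 1 surrogate variable, and 237 to 1049 without 1 library. Age averaged over training gave 1585, against 492 with 1 surrogate variable and 950 to 2452 without 1 library. The interaction gave 0, against 44 with DESeq2 and 0 to 582 without 1 library.

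Libraries of the same replicate number did not deviate together in all cases. Of 24 pairs of the same number, 12 had a correlation over 0.1, and correlations ranged from -0.245 to 0.477. Pairs of different number are not given beside these, so the values do not show whether a shared number matters. Whether it stands for anything else was not tested. The replicate block left the count of members called at 1 and 5 for training in young and old rats, at 0 for age in sedentary and in trained rats and for the interaction, and at 5 and 1 for the averaged comparisons. Over all genes it moved the calls for age in sedentary rats to 560. Low counts limit Hmox1 most.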
